A study of Mus musculus with 5 samples.

Results

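Creatine and calcium cycling genes were described here as 10 genes chosen by symbol out of the 32285 genes of each deposited matrix: Gatm, Slc6a8, Ckb, Ckm and Ckmt2 of creatine metabolism, and Atp2a1, Atp2a2, Sln, Ryr1 and Ryr2 of the calcium store. All 10 were present in both matrices. The data are single-nuclei RNA sequencing (snRNAseq) of mouse interscapular brown adipose tissue (iBAT), in which nuclei rather than whole cells are captured and each captured RNA molecule is counted once by its unique molecular identifier (UMI). One matrix (the 3-month matrix) holds 2 libraries from 3-month-old mice, a littermate control (WT) and a UCP1-STX4KO, in which Cre recombinase under the Ucp1 promoter deletes a floxed Stx4 gene in cells that express Ucp1. The other (the aging matrix) holds 3 libraries from C57BL/6J mice of 2, 12 and 24 months, and all groups share the C57BL/6 J background. The nuclei were sorted and came from 4 male mice, without a statement of how these were divided, so each condition is 1 library with no replicate.

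The barcode suffix separates the libraries, but no label ties it to a genotype or an age. Libraries are therefore named by their suffix number, no comparison of genotypes or ages was made, and a difference between libraries describes those libraries. Stx4a, the targeted gene, had 59.9 and 49.9 counts per 1000000 UMIs (CPM) in adipocyte nuclei of libraries 1 and 2 of the 3-month matrix, which assigns neither library to a genotype. The 3-month matrix held 116053743 UMIs over 20307 barcodes and the aging matrix 54656055 over 30000, with library medians of 3284.5 to 5998 and 891 to 1719.5 UMIs per barcode. Within a matrix, libraries shared 23 to 45 barcode sequences. Nuclei were gated into 9 cell types by fixed marker genes. Where a type had nuclei, its list was highest there for all its markers, save 1 of the 8 stromal markers. The same lists set the gates, so this does not test them. The gates held 14518 adipocyte, 344 skeletal muscle, 382 mural (pericyte or smooth muscle), 383 endothelial, 858 stromal and 449 macrophage nuclei in the 3-month matrix. They held 1417 adipocyte, 2885 mural, 17889 endothelial and 850 Schwann nuclei, and 0 skeletal muscle nuclei, in the aging matrix. A level is given in CPM over the summed UMIs of a gate, with a 95% Poisson interval that covers counting error alone. Contrasts between types and libraries were made within a gene. Where levels of different genes stand side by side, they are not read as differences in expression, since RNA captured from a nucleus depends on gene length and structure.

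In brown fat, heat comes mainly from UCP1, which lets protons leak across the inner mitochondrial membrane. Creatine cycling and calcium cycling are described as further ways to spend ATP: creatine is phosphorylated by creatine kinases and dephosphorylated again, while calcium is pumped into the endoplasmic reticulum by SERCA pumps and let out again by ryanodine receptors. The same proteins are classical parts of muscle, in which creatine kinases buffer ATP and the calcium store drives contraction.

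**Figure D1:**
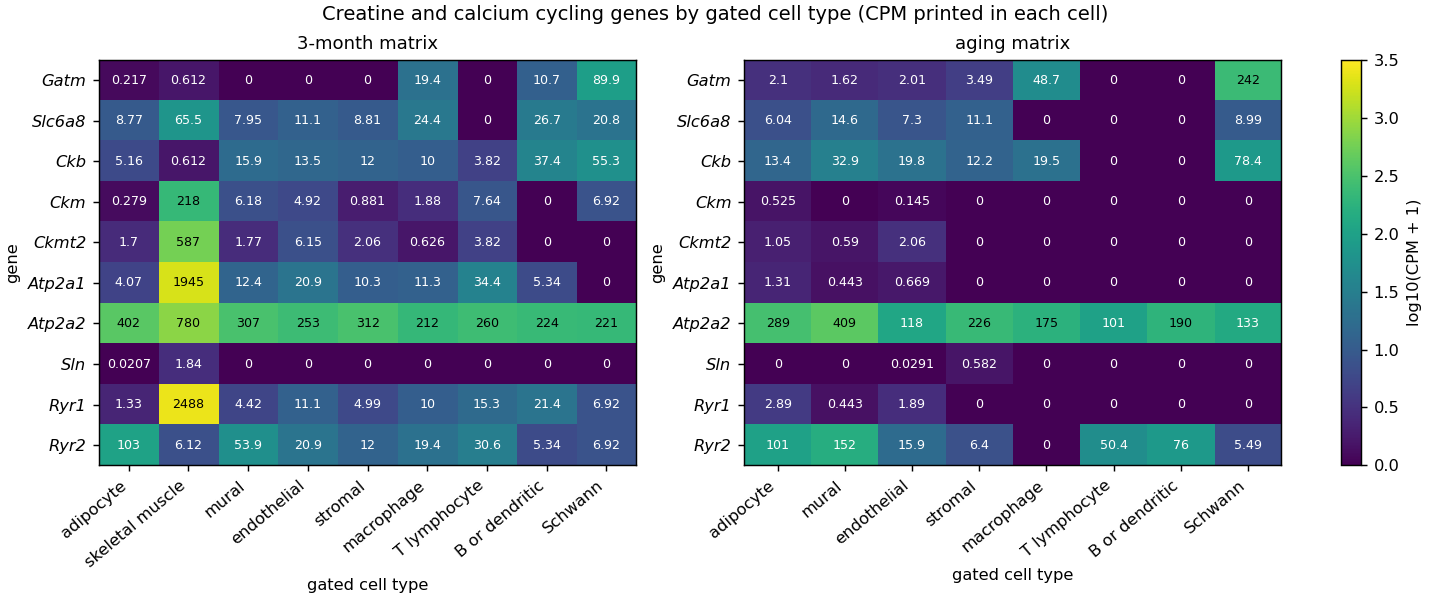
Heat maps of the CPM of each gene (rows, ordered by role) in each gated cell type (columns) of the 3-month matrix (left) and the aging matrix (right), coloured by log10(CPM + 1), with the CPM printed in each cell. Ckm, Ckmt2, Atp2a1 and Ryr1 stood at 218, 587, 1945 and 2488 CPM in skeletal muscle nuclei against 0.279, 1.70, 4.07 and 1.33 in adipocyte nuclei, while Atp2a2 was above 100 CPM in every type and Ryr2 was at 103 and 101 CPM in adipocyte nuclei of the 2 matrices.

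Of the 10 genes, Atp2a2 and Ryr2 were well detected in adipocyte nuclei, and the rest were at 8.77 CPM or less there in the 3-month matrix. Against all remaining gated nuclei of that matrix, Ryr2 was 5.57-fold higher in adipocyte nuclei (counting interval 4.79 to 6.52), and 7 genes were lower by 2-fold or more (Ckb, Ckm, Ckmt2, Gatm, Slc6a8, Atp2a1 and Ryr1). Atp2a2 was at a ratio of 1.09 (1.06 to 1.13), and Sln had too few UMIs. A gene was called higher or lower where the ratio of CPM was at least 2-fold and its interval left out 1, among genes with at least 20 UMIs. Among all 17915 genes so tested, 12.8% were higher and 27.4% lower. The median ratio over the 9 genes tested was 0.0424, beside 0.949 over all genes tested. These calls compare pooled nuclei of 1 library per condition, and no p-value is given.

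Skeletal muscle nuclei bore on these counts. With them left out of the remaining nuclei, an alternative chosen after the data had been seen, 5 genes were lower (Ckb 0.382, Ckm 0.105, Gatm 0.0356, Atp2a1 0.327 and Ryr1 0.180) against 26.9% of all genes. The types were unevenly spread over the libraries, and Atp2a1 was called in neither library alone (2.06, 0.557 to 17.2, in library 1 and 0.555, 0.437 to 0.710, in library 2). Ckm and Ryr1 had 3 and 13 adipocyte UMIs in library 1 and stayed below 20 UMIs there, so their calls rest on library 2. Adipocyte nuclei were at 0.0433 and 0.187 CPM of these 2 genes in library 1 and at 0.877 and 4.24 CPM in library 2. Their pooled ratios thus mix unlike libraries. Slc6a8 was at 0.696 pooled, with 1.45 (0.925 to 2.43) in library 1 and 0.307 (0.229 to 0.412) in library 2, where it was still lower. Ckmt2 was at 0.799 and Atp2a2 at 1.44, and Ryr2 was 4.87-fold higher against 12.8% of all genes. The aging matrix had no muscle nuclei, and 8 of the 10 genes had enough UMIs there. Ryr2 was higher (2.83, 2.53 to 3.17) against 18.3% of all genes and Gatm lower (0.164, 0.0706 to 0.326) against 20% of all genes. The Gatm call rests on library 1, which held 763 of the 850 Schwann nuclei, and without it the ratio was 1.09. The median ratio of the 8 was 1.22, beside 0.989 over all genes.

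Creatine synthesis starts with GATM, the enzyme that makes guanidinoacetate from arginine and glycine. Gatm (ENSMUSG00000027199) lies on the minus strand at chr2:122594467-122611303 of GRCm38. In adipocyte nuclei of the 3-month matrix 21 UMIs were counted, at 0.159 CPM in library 1 and 0.365 in library 2. In those of the aging matrix 8 were counted, all in library 2, where they gave 5.69 CPM. None of the 5 libraries had more than 11 adipocyte UMIs of Gatm.

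Gatm was instead high in Schwann nuclei, the glia of peripheral nerve. Those of the aging matrix held 485 UMIs, at 235, 385 and 203 CPM in libraries 1, 2 and 3, and 35.5% of them had at least 1 UMI. Their pooled level was 242 CPM (221 to 265). In the 3-month matrix Schwann nuclei were at 35.3 and 125 CPM, from 13 UMIs in 47 nuclei. Every library therefore had its highest Gatm in Schwann nuclei except library 1 of the 3-month matrix, where macrophage nuclei were at 55.5 CPM. Macrophage nuclei were next, at 19.4 CPM in the 3-month matrix (55.5 and 13.2 in libraries 1 and 2) and at 48.7 CPM from 5 UMIs in the aging matrix. Mural, endothelial and stromal nuclei of the 3-month matrix had 0 UMIs of Gatm. Adipocyte nuclei were at a ratio of 0.00867 (0.00372 to 0.0172) to Schwann nuclei in the aging matrix, where 19.4% of all genes were lower, and 0.00241 (0.00115 to 0.00525) in the 3-month matrix, where 8.56% were. Gamt, which methylates guanidinoacetate to creatine, had 30 UMIs in adipocyte nuclei of the 3-month matrix (0.310 CPM).

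Slc6a8, the creatine transporter of the cell membrane, lies on the plus strand at chrX:73673150-73682502 (ENSMUSG00000019558). It was highest in skeletal muscle nuclei, at 78.3 CPM in library 1 (3 UMIs in 8 nuclei) and 65.2 in library 2. Adipocyte nuclei were at 10.3 and 4.79 CPM in these libraries. Pooled over the libraries, muscle was 7.47-fold above adipocyte nuclei (6.05 to 9.14), and the libraries of both types did not overlap. Macrophage nuclei had 39 UMIs, all in library 2 (28.6 CPM). B or dendritic nuclei were at 26.7 CPM pooled (8.67 to 62.3, 5 UMIs), which overlapped muscle (53.7 to 79.1). Stromal, mural and endothelial nuclei, at 8.81, 7.95 and 11.1 CPM, had intervals that overlapped that of adipocyte nuclei (8.77, 8.19 to 9.38) when pooled. Within library 2, adipocyte nuclei were at 0.333 of endothelial nuclei (0.164 to 0.787, 8 endothelial UMIs).

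The contrast of Slc6a8 between adipocyte and remaining nuclei differed between the libraries: the ratio was 1.27 (0.835 to 2.05) in library 1 and 0.172 (0.136 to 0.217) in library 2. Library 2 held 336 of the 344 muscle nuclei, and its ratio without them was 0.307 (0.229 to 0.412). Across the aging matrix, Slc6a8 was at 5.06, 9.25 and 1.60 CPM in adipocyte nuclei of libraries 1, 2 and 3 and at 15.1, 11.9 and 15.4 CPM in mural nuclei. Pooled, mural nuclei were 2.42-fold higher (1.52 to 3.99). In library 2 the ratio was 1.28 and its interval reached from 0.560 to 2.97, so that library does not show the difference.

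Ckb encodes the cytosolic brain-type creatine kinase, the isoform studied for creatine cycling in brown fat. It is a compact gene of 2978 bases, 2.79% of them intronic, on the minus strand at chr12:111669361-111672338 (ENSMUSG00000001270). Whether intronic reads were counted is not stated. In adipocyte nuclei Ckb was at 4.66 and 6.43 CPM in libraries 1 and 2 of the 3-month matrix and at 8.44, 19.9 and 12.8 CPM in libraries 1, 2 and 3 of the aging matrix. Adipocyte nuclei were thus at or near the low end of the types in both matrices, and skeletal muscle nuclei, with 1 UMI in 344 nuclei (0.612 CPM), were below them.

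Pooled over libraries, Schwann nuclei had the highest Ckb of the gated types. They were at 77.0, 139 and 35.2 CPM in the 3 libraries of the aging matrix and 55.3 CPM (23.9 to 109) from 8 UMIs in the 3-month matrix. B or dendritic nuclei of the 3-month matrix overlapped them, at 37.4 CPM (15.0 to 77.0) from 7 UMIs. In libraries 2 and 3 of the aging matrix, the smooth muscle part of the mural nuclei was above Schwann nuclei, at 154 and 47.2 CPM. Mural nuclei were at 11.9 and 21.8 CPM in the 3-month matrix and at 24.6, 67.9 and 27.8 CPM in the aging matrix. In each of these 5 libraries mural nuclei were above adipocyte nuclei, 3.08-fold when pooled in the 3-month matrix (1.81 to 4.92) and 2.46-fold in the aging matrix (1.80 to 3.40). Among all genes of that contrast, 16% were higher and 10.3% lower in mural nuclei of the 3-month matrix, and 18.1% and 22.9% in the aging matrix. Endothelial, stromal and macrophage nuclei of the 3-month matrix, at 13.5, 12.0 and 10.0 CPM, had intervals that overlapped each other and mural nuclei. Endothelial nuclei of the aging matrix were at 19.8 CPM (15.0, 25.8 and 15.6) and stromal nuclei at 12.2 CPM, beside 13.4 CPM (9.97 to 17.6) in adipocyte nuclei. With every nucleus thinned to 500 UMIs, the ratio of mural to adipocyte Ckb in the 3-month matrix was 0.825, from few UMIs.

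**Figure D2:**
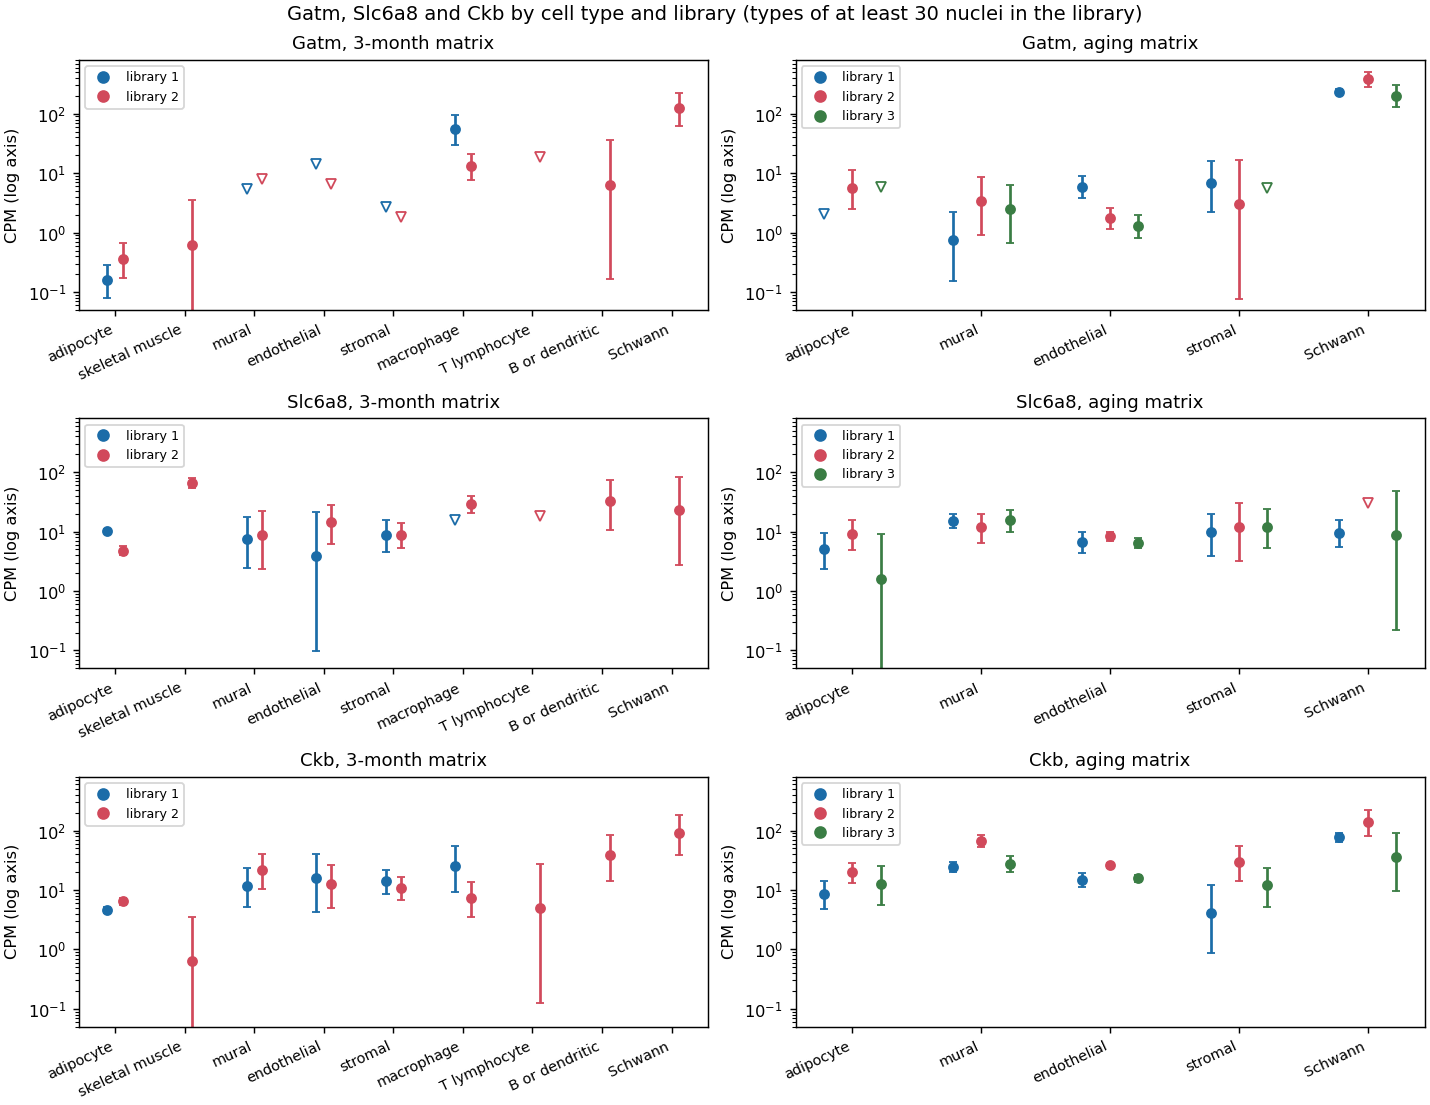
CPM (log axis) of Gatm, Slc6a8 and Ckb in each cell type with at least 30 nuclei in a library, by library (colours), for the 3-month matrix (left) and the aging matrix (right); bars are 95% Poisson intervals and open triangles mark the upper bound where 0 UMIs were counted. Gatm and Ckb were highest in Schwann nuclei of the aging matrix, and Slc6a8 in skeletal muscle nuclei.

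Ckm (muscle creatine kinase), Ckmt2 (the sarcomeric mitochondrial creatine kinase), Atp2a1 (the SERCA1 calcium pump of fast muscle) and Ryr1 (the release channel of skeletal muscle) shared 1 pattern. In muscle nuclei of libraries 1 and 2, Ckm was at 522 and 211 CPM and Ckmt2 at 887 and 580 CPM. Atp2a1 was at 2818 and 1924 CPM and Ryr1 at 2191 and 2495 CPM. Ryr1 had at least 1 UMI in 94.8% of muscle nuclei and Atp2a1 in 91.6%, with medians of 10.5 and 8 UMIs per nucleus.

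Against adipocyte nuclei, muscle nuclei were 780-fold higher for Ckm (527 to 1201), 346-fold for Ckmt2 (293 to 411), 478-fold for Atp2a1 (430 to 532) and 1865-fold for Ryr1 (1565 to 2240). With Slc6a8 this made 5 of the 9 genes tested higher, where 11.1% of all genes were. Ckb (0.119, 0.00300 to 0.664, from 1 UMI) and Ryr2 (0.0593, 0.0284 to 0.109) were lower, where 23.5% of all genes were. Atp2a2 was at 1.94 (1.84 to 2.05), just inside the 2-fold limit. Library 1 held 8 muscle nuclei and library 2 held 336, so the muscle levels are in the main those of library 2. Of the 14518 adipocyte nuclei 9837 were in library 1, so these folds set muscle of library 2 against adipocyte nuclei mostly of library 1. Within library 2, muscle and adipocyte nuclei were at 211 and 0.877 CPM for Ckm and 580 and 2.52 for Ckmt2. They were at 1924 and 10.5 CPM for Atp2a1 and 2495 and 4.24 for Ryr1, so the folds of these genes are smaller there. The labels name no muscle among the tissues sampled.

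The RefSeq promoters of these genes are shown because the 4 genes were high together in muscle nuclei while Ckb, a paralogue of Ckm and Ckmt2, was not. They are printed 5′ to 3′ on the gene's strand for GRCm38.p6, up to 250 bases before the RefSeq start, without bases that the annotation counts as exons. Capitals mark an E-box (CANNTG, bound by MyoD and its relatives), a TATA box (TATAAA) or a MEF2 motif, searched on both strands, with CArG boxes also searched. The windows are chr7:19410844-19411024 (plus strand) for Ckm, chr13:91876886-91877135 (minus) for Ckmt2, chr7:126463109-126463323 (minus) for Atp2a1, chr7:29125180-29125401 (minus) for Ryr1 and chr12:111672339-111672588 (minus) for Ckb.
Ckm: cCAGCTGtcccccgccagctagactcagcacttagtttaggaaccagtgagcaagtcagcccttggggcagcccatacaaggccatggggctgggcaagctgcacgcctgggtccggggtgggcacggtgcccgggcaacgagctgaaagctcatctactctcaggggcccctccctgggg
Ckmt2: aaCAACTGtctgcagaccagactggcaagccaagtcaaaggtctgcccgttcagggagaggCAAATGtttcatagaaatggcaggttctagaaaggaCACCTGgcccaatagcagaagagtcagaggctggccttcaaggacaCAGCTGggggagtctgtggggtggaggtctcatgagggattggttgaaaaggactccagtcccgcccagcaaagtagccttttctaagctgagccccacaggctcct
Atp2a1: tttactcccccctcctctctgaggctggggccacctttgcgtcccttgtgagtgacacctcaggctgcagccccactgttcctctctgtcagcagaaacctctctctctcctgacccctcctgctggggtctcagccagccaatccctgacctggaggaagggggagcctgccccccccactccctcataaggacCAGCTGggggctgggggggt
Ryr1: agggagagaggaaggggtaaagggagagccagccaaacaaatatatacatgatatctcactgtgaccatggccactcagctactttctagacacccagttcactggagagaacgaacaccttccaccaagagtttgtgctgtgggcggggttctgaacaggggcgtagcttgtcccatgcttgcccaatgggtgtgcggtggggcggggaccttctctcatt
Ckb: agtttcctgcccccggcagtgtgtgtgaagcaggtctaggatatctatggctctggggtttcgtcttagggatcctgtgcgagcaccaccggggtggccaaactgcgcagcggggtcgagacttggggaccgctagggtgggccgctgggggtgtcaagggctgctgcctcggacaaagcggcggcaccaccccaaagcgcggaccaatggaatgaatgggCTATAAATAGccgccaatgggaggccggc

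Ckmt2 had 4 E-boxes in its window, Ckm and Atp2a1 had 1 each, at 249 and 55 bases before the start, and Ryr1 and Ckb had 0. Of all 27025 RefSeq promoter windows of 250 bases, 66.0% held an E-box, so a match is common. Ckb had a TATA box 28 bases before its start, a motif in 12.97% of windows, and a MEF2 motif that overlaps it, found in 3.01%. None of the 5 held a CArG box, which 1.40% of windows did. The RefSeq start of Ckm lies within the span that the gene annotation gives for the gene (chr7:19404776-19422841), which begins further upstream. These matches describe letters and not binding.

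Outside muscle nuclei the 4 genes were scarce. Within the 3-month matrix, the levels of Ckm, Atp2a1 and Ryr1 went with the library that held most muscle nuclei. In adipocyte nuclei of libraries 1 and 2, Ckm was at 0.0433 and 0.877 CPM, Atp2a1 at 1.54 and 10.5 CPM, and Ryr1 at 0.187 and 4.24 CPM. Library 2 was above library 1 by 20.3-fold for Ckm (6.16 to 105), 6.80-fold for Atp2a1 (5.42 to 8.57) and 22.6-fold for Ryr1 (12.7 to 43.7), where 14% of all genes were higher by 2-fold or more. Ttn, the giant sarcomere protein used as a muscle marker, was at 3.1 CPM in adipocyte nuclei of library 1 and 58.6 CPM in those of library 2. All 7 mural UMIs of Ckm and all 14 of Atp2a1 were in library 2. The calls of Ckm, Atp2a1 and Ryr1 as higher in mural than in adipocyte nuclei (22.1-fold, 3.04-fold and 3.31-fold) therefore rest on that library, and within it alone Ryr1 was not called (2.58, 0.821 to 6.19). The 185 mural nuclei of library 1 had 0 UMIs of each, and the intervals of their ratios to adipocyte nuclei reached 249 for Ckm, 3.61 for Atp2a1 and 33.7 for Ryr1, so a difference was not detectable there at this depth.

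The ratio of these genes to Ttn in library 2 is given for the 7 types outside muscle with at least 50 nuclei there. Schwann nuclei, 36 in that library, were left out. Per Ttn UMI, Atp2a1 was at 0.111 (1 UMI, B or dendritic) to 0.194 (mural), and at 0.0288 in muscle nuclei. Ryr1 was at 0.0694 (mural) to 0.444 (4 UMIs, B or dendritic), and at 0.0374 in muscle nuclei. Ckm was at 0 to 0.0972 and Ckmt2 at 0 to 0.0481 in the 7 types, and at 0.00316 and 0.00870 in muscle nuclei. The ratios of Ckm, Ckmt2 and Ryr1 thus varied more between types than that of Atp2a1, on few UMIs. Ckmt2 differed from the other 3: it was at 1.37 and 2.52 CPM in adipocyte nuclei of libraries 1 and 2, a ratio of 1.84 (1.33 to 2.54), which is short of the 2-fold limit. Without muscle nuclei, the aging matrix had 9 UMIs of Ckm in all. Its adipocyte nuclei had 5 UMIs of Atp2a1, 4 of Ckmt2 and 11 of Ryr1 (2.89 CPM). In its library 3, adipocyte nuclei were at 11.2 CPM of Ryr1 (4.52 to 23.1, 7 UMIs). They were at 6.42 CPM of Ckmt2 (4 UMIs) and 3.21 CPM of Ckm (2 UMIs), with 0 UMIs of Atp2a1. Ryr1, Ckmt2 and Ckm thus lay above adipocyte nuclei of library 2 of the 3-month matrix, with overlapping intervals. Ckmt2 (71 UMIs, 2.06 CPM) and Ryr1 (65 UMIs, 1.89 CPM) were also counted in the 17889 endothelial nuclei of the aging matrix. The part of free RNA in these low levels was not tested.

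Muscle nuclei were also split by which of 4 myosin heavy chains had most UMIs: Myh4, Myh1 and Myh2 of fast fibers, and Myh7 of slow fibers. This gave 147, 85, 47 and 50 nuclei, with 15 tied nuclei left out. Atp2a2 encodes SERCA2, whose 2a form is the pump of slow and cardiac muscle. It was at 71.4, 78.3 and 116 CPM in the Myh4, Myh1 and Myh2 nuclei and at 4105 CPM in the Myh7 nuclei, 51.1-fold above the fast classes together (41.8 to 62.9).

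Atp2a1 went the other way, at 2795, 2106 and 1108 CPM in the fast classes and 292 CPM in the Myh7 class, which is 7.99-fold lower (6.42 to 10.1). The 2 pumps separated within single nuclei as well. Of 344 muscle nuclei, 40 had at least 10 UMIs of Atp2a2 and these held 86.0% of its muscle UMIs, 146 had at least 10 of Atp2a1, and 0 nuclei had 10 or more of both. The count of 10 UMIs was chosen after the values had been seen. The level of 780 CPM for Atp2a2 in muscle as a whole is thus an average over a small class at 4105 CPM and larger classes at 71.4 to 116 CPM, which lie below adipocyte nuclei at 402 CPM.

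The remaining genes varied less between the classes. Ckm was at 302, 192, 131 and 111 CPM in the Myh4, Myh1, Myh2 and Myh7 nuclei, with the slow class at 0.453 of the fast classes (0.303 to 0.656). Ckmt2 had nearly the reverse order, at 408, 654, 900 and 795 CPM, and the slow class was at 1.44 of the fast classes (1.23 to 1.67). Ryr1 was at 2944, 2269, 2540 and 1740 CPM and Slc6a8 at 62.0, 89.1, 48.4 and 64.2 CPM. For Slc6a8 the slow to fast ratio of 0.952 had an interval from 0.539 to 1.59, which does not show that the classes are alike. As a reference, Ttn was at a ratio of 0.927. Sln, the small peptide sarcolipin that uncouples SERCA from transport, had 3 UMIs in muscle nuclei, all in the Myh7 class.

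**Figure D3:**
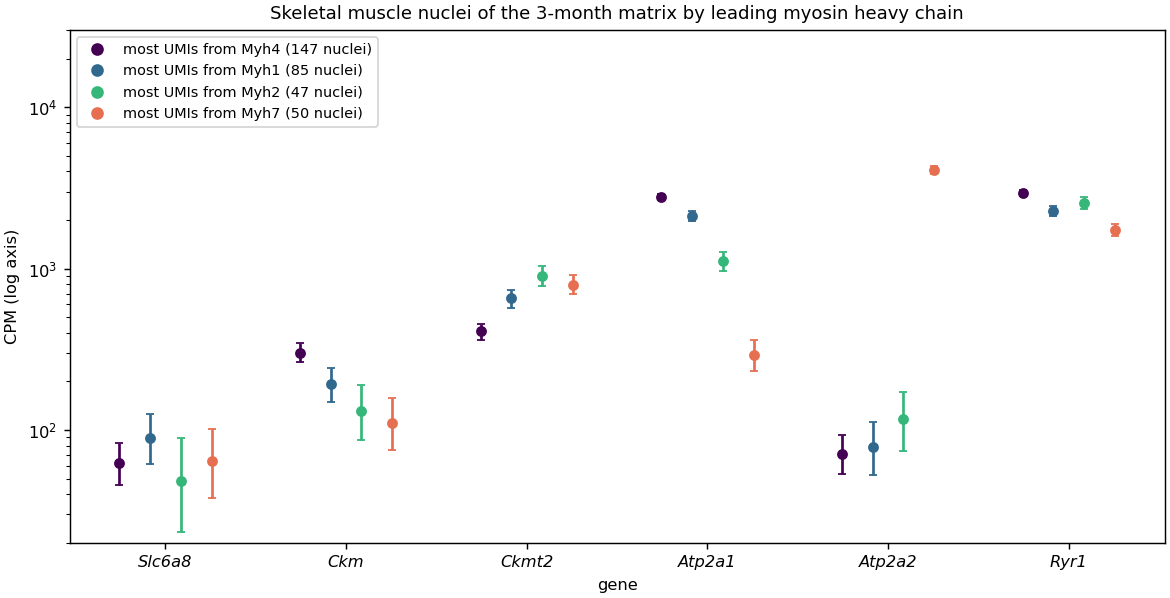
CPM (log axis) of 6 genes in skeletal muscle nuclei of the 3-month matrix, grouped by the myosin heavy chain gene with most UMIs in the nucleus (colours); bars are 95% Poisson intervals. Atp2a2 stood at 4105 CPM in the Myh7 nuclei and at 71.4 to 116 CPM in the other classes, and Atp2a1 at 292 CPM in the Myh7 nuclei against 1108 to 2795 CPM.

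Atp2a2 (ENSMUSG00000029467, minus strand, chr5:122453513-122502225) was detected in every gated type. In adipocyte nuclei it was at 381 and 454 CPM in the 3-month matrix and at 301, 284 and 266 CPM in the aging matrix, so that the libraries within a matrix lay within a factor of 1.19 of each other. At least 1 UMI was found in 80.5% of adipocyte nuclei of the 3-month matrix. Pooled over its libraries, all other types of that matrix except muscle were lower, from 212 CPM in macrophage to 312 CPM in stromal nuclei, and mural (307 CPM), stromal, T lymphocyte (260 CPM) and endothelial (253 CPM) nuclei overlapped with their neighbours in this order.

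The pooled differences of Atp2a2 from adipocyte nuclei were below 2-fold in that matrix, with ratios of 1.59 to endothelial (1.38 to 1.83), 1.29 to stromal (1.21 to 1.37), 1.90 to macrophage (1.71 to 2.12) and 1.81 to Schwann nuclei (1.29 to 2.65). Single libraries went past 2-fold, with 2.08 to endothelial nuclei in library 1 (1.56 to 2.83) and 2.29 to macrophage (2.03 to 2.59) and 2.35 to Schwann nuclei (1.47 to 4.04) in library 2. Atp2a3, which encodes the SERCA3 pump, was at 0.538 CPM in adipocyte nuclei of that matrix and at 7.95 in mural, 32.0 in endothelial and 65.0 in T lymphocyte nuclei, and it was called lower in adipocyte than in remaining nuclei of both matrices. In the aging matrix pooled adipocyte nuclei (289 CPM, 272 to 307) were 2.46-fold above endothelial (2.30 to 2.63) and 2.17-fold above Schwann nuclei (1.90 to 2.50), where 21% and 26.2% of all genes were higher. Less than 2-fold separated adipocyte (301 CPM) from endothelial nuclei (177 CPM) in library 1. The same held for adipocyte (266 CPM) and Schwann nuclei (185 CPM, 21 UMIs) in library 3, whose intervals overlapped. Pooled mural nuclei were above adipocyte nuclei at 409 CPM (394 to 424). The order of mural and adipocyte nuclei thus differed between the matrices, and between libraries mural nuclei were at 478, 275 and 336 CPM. Ucp1, an adipocyte gene, was at 160 to 650 CPM in the other types of the 3-month matrix, and the part of free adipocyte RNA in their levels was not tested. Per Ucp1 UMI, Atp2a2 was at 0.371 in adipocyte, 0.348 in endothelial (47 UMIs), 0.791 in mural and 0.800 in stromal nuclei of library 1. In library 2 these ratios were 0.546, 0.704, 1.08 and 1.52. The mural and stromal ratios were above the adipocyte ratio in both libraries, and the endothelial ratio was above it in library 2 alone.

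Sln (ENSMUSG00000042045, plus strand, chr9:53850164-53854560) was nearly absent. It had 2 UMIs in 14518 adipocyte nuclei and 3 in muscle nuclei of the 3-month matrix, 1 in endothelial and 1 in stromal nuclei of the aging matrix, and 0 in the other gated types. Other small regulators of SERCA were low in adipocyte nuclei too: Pln (phospholamban) was at 1.6 and 1.3 CPM in the 2 matrices. Mrln (myoregulin) and Strit1 (DWORF) were at 9.2 and 6.1 CPM in muscle nuclei.

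Ryr2, the ryanodine receptor best known from heart, is a gene of 553844 bases, 94.8% of them intronic, on the minus strand at chr13:11553102-12106945 (ENSMUSG00000021313). In adipocyte nuclei of the 3-month matrix it was at 122 CPM in library 1 and 55.6 CPM in library 2, and 32.3% and 12.5% of the nuclei had at least 1 UMI. Pooled, it was the highest of the gated types there. Mural nuclei followed at 56.3 and 50.2 CPM, and in library 2 they could not be told from adipocyte nuclei (ratio 0.904, 0.571 to 1.36), while T lymphocyte, endothelial, macrophage and stromal nuclei were at 30.6, 20.9, 19.4 and 12.0 CPM pooled. Skeletal muscle nuclei were at 6.12 CPM from 10 UMIs.

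Within each library Ryr2 was higher in adipocyte than in the remaining nuclei, by 4.03-fold in library 1 (3.25 to 5.08) and 4.09-fold in library 2 (3.29 to 5.12). In pairs of types pooled over the libraries, adipocyte nuclei were 8.58-fold above stromal (6.32 to 12.0), 5.32-fold above macrophage (3.75 to 7.84) and 4.94-fold above endothelial nuclei (3.08 to 8.48). Of all genes, 14%, 16.4% and 9.52% were higher in these contrasts. Library 1, with the higher adipocyte Ryr2, held 9837 of the 14518 adipocyte nuclei but 68 of the 449 macrophage nuclei. The pooled ratios therefore need not hold within a library. Library 2 was at 0.456 of library 1 (0.431 to 0.481) in adipocyte nuclei, where 23.3% of all genes were lower by 2-fold or more. Counts were uneven among nuclei: 508 of 9837 adipocyte nuclei of library 1 (5.16%) and 88 of 4681 of library 2 (1.88%) had 5 or more UMIs. Thinned to 500 UMIs each, which removes the difference in depth, 5.12% and 1.82% of adipocyte nuclei had a UMI of Ryr2, and 0 of 383 endothelial nuclei did.

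Ryr2 varied most between the libraries of the aging matrix. Adipocyte nuclei were at 12.4 CPM in library 1 (7.75 to 18.7, 22 UMIs in 624 nuclei), 120 CPM in library 2 (102 to 139, 168 UMIs in 570) and 311 CPM in library 3 (269 to 358, 194 UMIs in 223). The shares of these nuclei with a UMI were 2.56%, 19.3% and 43.9%, and after thinning to 500 UMIs 0.648%, 4.74% and 9.42%. The intervals of the 3 libraries did not overlap. Library 2 was 9.66-fold above library 1 (6.17 to 15.8) and library 3 was 25.2-fold above it (16.1 to 41.1), where 8.59% and 6.28% of all genes were higher.

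The same contrast was small in mural nuclei, with Ryr2 at 140, 141 and 190 CPM and ratios to library 1 of 1.005 (0.840 to 1.20) and 1.36 (1.18 to 1.56). Adipocyte Atp2a2 was at ratios of 0.943 (0.826 to 1.08) and 0.885 (0.739 to 1.06) to library 1. Other adipocyte genes also differed between these libraries, with Ucp1 at 1160, 1860 and 549 CPM and Adipoq at 210, 168 and 88.2 CPM. Adipoq fell from library 1 to library 3, the reverse of the order of Ryr2, and Ucp1 followed neither order. In library 1 the adipocyte level of Ryr2 was not distinguishable from that of endothelial nuclei (17.1 CPM, ratio 0.726, 0.426 to 1.19). In libraries 2 and 3 it was 9.27-fold (7.48 to 11.5) and 17.0-fold (14.1 to 20.4) above them. The contrast of adipocyte with remaining nuclei was accordingly 0.203, 5.34 and 9.46 in the 3 libraries, and library 1 goes against the pooled direction. Because each of these libraries is 1 preparation of unnamed age, age, mouse and preparation cannot be told apart.

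Pooled over the libraries, mural nuclei had the highest Ryr2 and Atp2a2 of the types of the aging matrix with at least 50 nuclei. By library this did not hold for Ryr2 in library 3, where adipocyte nuclei were above them, nor for Atp2a2 in library 2, where adipocyte nuclei were at 284 and mural nuclei at 275 CPM, or in library 3, where macrophage nuclei were at 406 CPM from 15 UMIs. Mural nuclei were divided by markers into 1046 smooth muscle nuclei (Myh11, Acta2 and Tagln) and 1763 pericyte nuclei (Kcnj8, Abcc9 and Rgs5). Ryr2 was at 359, 466 and 678 CPM in smooth muscle nuclei of libraries 1, 2 and 3 and at 4.99, 6.15 and 18.0 CPM in pericyte nuclei. Pooled, smooth muscle was 50.1-fold higher (36.2 to 71.2), and the classes did not overlap in any library.

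Atp2a2 was at 831, 495 and 564 CPM in smooth muscle nuclei against 254, 186 and 250 CPM in pericyte nuclei, 3.04-fold higher when pooled (2.81 to 3.29). Ckb was at 46.6, 154 and 47.2 CPM against 10.8, 29.5 and 20.6 CPM, 3.73-fold higher (2.80 to 5.01). Slc6a8 was 1.97-fold higher when pooled (1.30 to 3.00), with 2.82, 1.31 and 1.07 in the libraries. Pln, which inhibits SERCA2, was 19.2-fold higher in smooth muscle nuclei (11.05 to 36.0), at 61.3 against 3.20 CPM. The 3-month matrix had 20 smooth muscle and 358 pericyte nuclei, and Ryr2 was at 559 against 29.0 CPM there, 19.3-fold higher (11.3 to 33.0), and Atp2a2 2.04-fold higher (1.37 to 2.94). Smooth muscle nuclei were thus above adipocyte nuclei of the same library in Ryr2 in all 5 libraries.

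**Figure D4:**
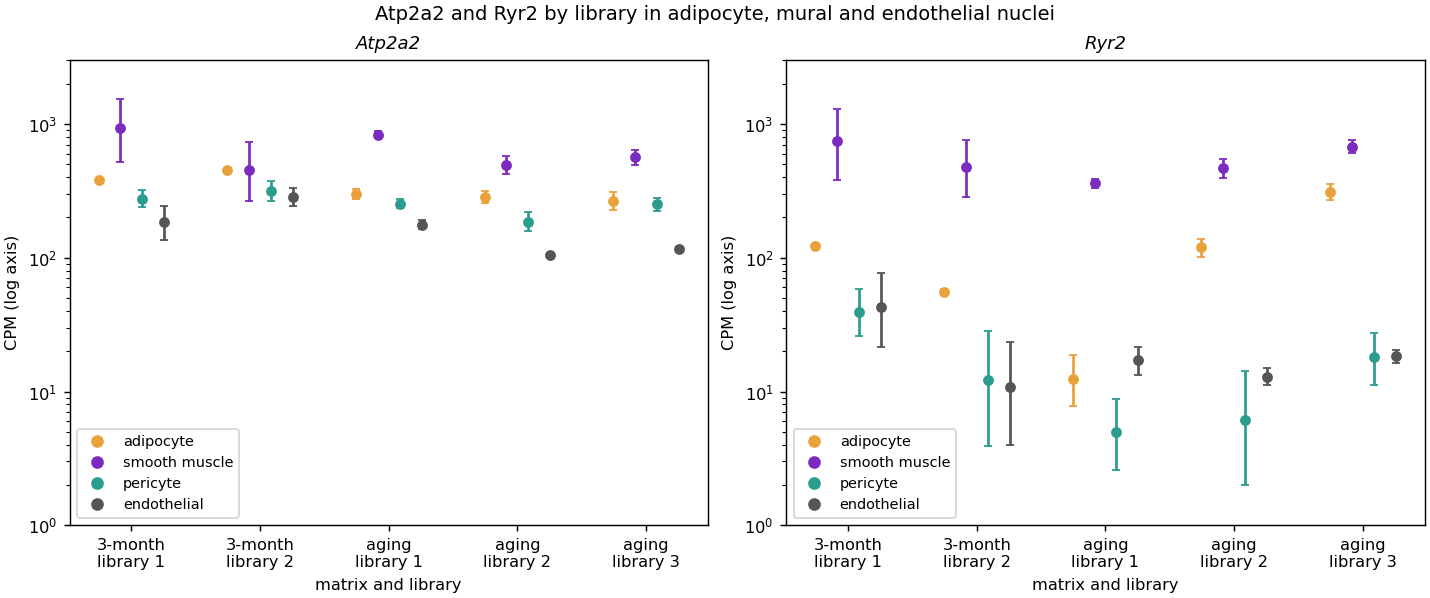
CPM (log axis) of Atp2a2 (left) and Ryr2 (right) in adipocyte, smooth muscle, pericyte and endothelial nuclei of each library; bars are 95% Poisson intervals. Adipocyte Ryr2 stood at 12.4, 120 and 311 CPM in libraries 1 to 3 of the aging matrix, while smooth muscle Ryr2 stood at 359, 466 and 678 CPM and adipocyte Atp2a2 at 301, 284 and 266 CPM.

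Adipocyte nuclei were also grouped by their Ucp1 UMIs after each was thinned to 1000 UMIs, with 6572 nuclei at 0, 4006 at 1 and 3502 at 2 or more in the 3-month matrix. Atp2a2 was at 1.28 in the group of 2 or more relative to that of 0 (1.25 to 1.32), with 1.07 in library 1 and 1.94 in library 2. Ryr2 was at 1.44 (1.38 to 1.51), with 1.14 and 3.23, and Ckb at 0.987 (0.783 to 1.24). Adipoq was at 0.842, with 0.959 and 0.337. The differences of Atp2a2, Ryr2 and Adipoq were small in library 1 and larger in library 2. Across the aging matrix Atp2a2 was at 1.27 (1.11 to 1.46), with 1.32, 1.22 and 1.33 in its libraries. Ryr2 was at 0.595 pooled (0.467 to 0.755), with 0.166, 1.06 and 0.590, so its direction differed between the matrices and between the libraries.

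A wider list of 23 genes of creatine metabolism and the calcium store was counted in the same contrasts. In muscle against adipocyte nuclei 13 of the 20 genes tested were higher and 2 (Itpr1 and Itpr2) lower, beside 11.1% and 23.5% of all genes. Among those higher, Trdn (triadin, an anchor of the release complex) was at 6563 CPM in muscle nuclei, Jph1 (junctophilin) at 1328, Cacna1s (the voltage sensor) at 259, Casq1 (calsequestrin) at 185 and Stac3 at 143 CPM. In adipocyte against remaining nuclei of the 3-month matrix, 1 of 21 was higher and 14 lower, beside 12.8% and 27.4% of all genes, or 9 lower with muscle nuclei left out, beside 26.9%. The 1 higher gene was Itpr2, an inositol trisphosphate receptor, another kind of release channel of the same store.

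Itpr2 was at 1099 and 1323 CPM in adipocyte nuclei of the 2 matrices against 310 and 115 CPM in mural nuclei, and it was also the 1 higher gene in the aging matrix, where 11 of 19 were lower, beside 18.3% of all genes higher and 20% lower. In mural against adipocyte nuclei 9 of 20 were higher in the 3-month matrix and 8 of 16 in the aging matrix, beside 16% and 18.1% of all genes. Cacna1c, the L-type channel of smooth muscle and heart, was at 2216 and 3500 CPM in mural nuclei against 10.2 and 62.5 CPM in adipocyte nuclei. Casq2 was at 32.7 and 45.6 CPM in mural nuclei.

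The genes whose pattern was most like each of the 10 were found by Pearson's r of log2(CPM + 1) over 27 sums of a cell type in a library, among 12448 genes. The sums share libraries, so r is a description. The only muscle sum was that of 336 nuclei in library 2 of the 3-month matrix. High r between genes of muscle therefore leans on that sum. Atp2a1 was nearest to Myh4 (0.979), Ckm to Myh7 (0.960), Ryr1 to Agbl1 (0.945) and Ckmt2 to Mypn (0.930). Gatm was nearest to Edil3 (0.863), Atp2a2 to Psme4 (0.847), Ryr2 to Rnf152 (0.840), Ckb to Marcks (0.825) and Slc6a8 to Inafm1 (0.789). Next came Nrap and Myot for Atp2a1, Myot and Myh4 for Ckm, Trdn and Trim63 for Ryr1 and Casq1 and Myh7 for Ckmt2, which are genes of muscle. For Ryr2 they were Sycp2 and Pakap, for Atp2a2 Klhl7 and 9530052E02Rik, for Ckb Klhl5 and Pgrmc1, for Gatm Adgrg6 and Apoe, and for Slc6a8 Lsmem1 and AW046200. Among the 10 themselves, Ckm and Ckmt2 were at 0.906 and Atp2a1 and Ryr1 at 0.894. Lower values were found for Atp2a1 and Atp2a2 (0.514), Ryr2 and Atp2a2 (0.431), Ryr1 and Ryr2 (-0.091) and Ckb and Ckm (-0.547).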

How the data were processed

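The authors sorted nuclei of iBAT, prepared 10x Genomics 3′ libraries, aligned reads to mm10 and counted UMIs with Cell Ranger 6.1.2, with cells forced to 10000, and their notes also name Seurat 4.1.0. As deposited, the matrices hold raw UMI counts. The annotation release and whether intronic reads were counted are not given in the sources used here. Nuclei with at least 200 UMIs and 100 genes were kept (20307 and 27842). The upper limits that the methods also state (2000 UMIs, 3000 genes) would leave 2763 and 18756 and were tried as an alternative.

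A nucleus was called adipocyte with at least 3 adipocyte markers, at least 8000 CPM of these markers and at least 3 times the UMIs of any other list. Otherwise, with adipocyte markers below 8000 CPM, it took the non-adipocyte list with the most markers detected. At least 3 markers of that list had to be present, and more than of any other non-adipocyte list. This left 3128 and 4049 nuclei ungated. The marker lists, members, wider list and alternatives were chosen with earlier results of these data known, and the scoring rule of the gate after seeing the data. Genes named were the 10, the wider list, Ucp1, markers and, for each of the 10, its 3 most similar genes. No doublet caller was run, and an alternative left out nuclei with markers of another list.

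UMIs were summed per cell type and library in Python 3.11.15 (pandas 2.3.3, scipy 1.17.1, numpy 2.4.6). All intervals are exact, at 95%, and cover counting error alone: Poisson for levels, Clopper-Pearson for shares, and the conditional binomial interval for a ratio of CPM. The ratio script was tested on simulated data. With 1 library per condition there is no test across mice. Gene positions are from a GENCODE annotation of GRCm38, matched by identifier for 10 of 10 genes, and promoters from RefSeq (GRCm38.p6), which held 7 of 10. Atp2a2, Ryr1 and Ryr2 overlap other gene models on their own strand, so reads there may be shared.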

Additional observations from a re-analysis of the deposited data

How the results depend on the processing

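Each contrast was recomputed with another gate, filter, depth, weighting or fold. In the 3-month matrix, adipocyte nuclei had 1 gene higher and 7 lower, muscle nuclei 5 higher and 2 lower, and mural nuclei 4 higher and 0 lower. In the aging matrix, adipocyte nuclei had 1 higher and 1 lower, and mural nuclei 2 higher and 0 lower. Of these counts under alternatives, 72 stayed within 1.5 times and 32 did not. The share of all genes called is not given for the alternatives below. A changed count therefore cannot be told from a change in how many genes pass in general. With a stricter gate, mural nuclei of the 3-month matrix had 2 higher. With each nucleus given to its most likely profile, they had 1 lower, and in the aging matrix adipocyte nuclei had 3 higher and mural nuclei 1 higher and 1 lower. Within the stated window of UMIs and genes, which removes library 1 of the 3-month matrix, adipocyte nuclei had 0 higher and 4 lower, muscle nuclei 0 lower and mural nuclei 0 higher. In the aging matrix that window gave 2 higher and 0 lower in adipocyte and 0 higher in mural nuclei. Thinned to 500 UMIs, the 3-month counts were 4 lower in adipocyte, 1 lower in muscle and 1 higher in mural nuclei, and the aging counts 2 higher in adipocyte and 1 higher in mural nuclei. Equal weight of libraries gave 2 higher in adipocyte and 1 lower in mural nuclei of the aging matrix. A fold of 1.5 gave 1 lower in mural nuclei of the 3-month matrix and 2 higher and 2 lower in adipocyte nuclei of the aging matrix, and a fold of 3 gave 0 higher in adipocyte and mural nuclei of the latter. Leaving out 1 library gave 1 to 3 higher and 0 to 1 lower in mural nuclei of the 3-month matrix, and 0 to 3 higher and 0 to 3 lower in adipocyte nuclei of the aging matrix. The cause was not tested beyond these settings.

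Single ratios that turned direction were Slc6a8 of adipocyte to remaining nuclei (1.57 in the window, and 0.172 to 1.27 with 1 library left out), Ckb of muscle to adipocyte nuclei (1.21 in the window) and Ckb of mural to adipocyte nuclei (0.825 thinned). In mural nuclei of the 3-month matrix, Atp2a1 was at 0.485 and Ryr1 at 0.475 in the window, and with library 1 left out Ckm was at 17.4, Atp2a1 at 2.92 and Ryr1 at 2.58. With library 2 left out these 3 were at 0, from 0 mural UMIs in library 1, with intervals that reached above 1, so these values show no turn in direction. Gatm of adipocyte to remaining nuclei of the aging matrix was at 1.09 without library 1, which held 763 of the 850 Schwann nuclei. The shallow aging libraries limit what can be said of genes at low CPM. With 0 UMIs taken as fewer than 3, the limit in adipocyte nuclei was 1.69, 2.13 and 4.81 CPM in libraries 1, 2 and 3. It was 24.5 and 26.4 CPM in Schwann nuclei of libraries 2 and 3. No paired analysis was possible because each condition is 1 library and no test was made.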
